A study of Mus musculus with 6 samples.

Results

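Kinesins are motor proteins that use ATP to move along or take apart microtubules, and the genes of this family were followed here in differentiating mouse ependymal cultures with and without Edf1. Members were all gene symbols made of Kif, a number and at most 1 of the letters a, b or c, together with Kifap3, the accessory subunit of the heterotrimeric kinesin of cilia. The rule found 40 of the 22851 genes in the count table, and 37 of them had enough counts to be tested. A ciliary group (Kif3a, Kif3b, Kif6, Kif9, Kif17, Kif19a and Kif27) was contrasted with a mitotic group (Kif11, Kif20a, Kif23, Kif2c and Kif4). The cultures came from C57BL/6J mouse brains taken at postnatal days 0 to 3, grown as radial glial cells in medium with 10% fetal bovine serum, and kept for 6 days without serum so that they would become multiciliated ependymal cells. The wild-type (WT) group had 3 libraries from wild-type mice. The knockout group had 3 libraries from mice in which Edf1, a transcriptional coactivator that also binds collided ribosomes, had been disrupted with Cas9. The series calls the libraries biological replicates. It does not say whether animals were pooled, which part of Edf1 was removed or how many knockout lines were used. The p-values set the difference between genotypes against the spread between these libraries.

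In a multiciliated cell, kinesin-2 (Kif3a, Kif3b and Kifap3) carries intraflagellar transport trains towards the ciliary tip, while other kinesins sit in or regulate the motile axoneme. In a dividing cell, a different set builds the spindle, moves chromosomes and completes cytokinesis. Radial glia divide, and they stop dividing when they turn into ependymal cells, so both sets can be found in one such culture.

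Libraries held 13071766 to 28087006 counts, and kinesin genes took 0.254% of them in WT replicate 2, the shallowest library, and 0.287% to 0.298% in the other 5. Edf1 itself fell from 82.9 ± 2.85 to 11.3 ± 1.72 CPM (counts scaled to a common library total, mean ± SD, n = 3 each), and the levels matched the genotype labels in all 6 libraries. All 12 markers of multiciliated ependymal cells were tested and called lower in the knockout, with summed levels of 2177 to 2513 CPM in WT and 1322 to 1403 CPM in Edf1 knockouts. Foxj1 among them stood at 788 ± 43.4 CPM in WT and 523 ± 10.3 CPM in Edf1 knockouts. Markers of microglia were also lower (9 of 10 called, summed 1954 to 2107 CPM in WT and 1302 to 1334 CPM in Edf1 knockouts). Of 11 listed fibroblast, mural and endothelial markers, 7 could be tested and all 7 were called higher. These were Col1a1, Col1a2, Col3a1, Dcn, Lum, Pdgfrb and Acta2. The list summed to 564 to 606 CPM in WT and 727 to 814 CPM in Edf1 knockouts. Most of this was Acta2, at 475 ± 19.0 CPM in WT and 586 ± 21.9 CPM in Edf1 knockouts. The mural marker Rgs5 and the endothelial markers Pecam1 and Cdh5 were too low to be tested. Cldn5, also endothelial, had 0 counts in every WT library, so no endothelial marker was tested. Neuron markers summed to 264 to 344 CPM in WT and 290.0 to 303 CPM in Edf1 knockouts, with 2 of 10 called lower. Oligodendrocyte lineage markers summed to 120.0 to 131 CPM in WT and 131 to 142 CPM in Edf1 knockouts, with 1 of 6 called higher. A call is defined below, and over all genes tested 14.2% were called lower and 12.7% higher. The part of these cell mixtures in the kinesin results was not tested.

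The knockout changed the level of many kinesin genes, in both directions. Of the 37 tested members, 8 were called lower and 12 higher, so 20 were called in all. A call means a Benjamini-Hochberg adjusted p below 0.05 from the quasi-likelihood test of edgeR, which is the source of each adjusted p given here. Over all 14243 genes tested, 26.9% were called, 14.2% lower and 12.7% higher. Levels of WT and knockout libraries did not overlap for 22 of the 37 members, against 43.3% of all genes tested. The lowest log2 fold change (knockout over WT, the log2 change below) was that of Kif19a at -0.92 and the highest that of Kif5a at 1.44, with a median over the tested members of 0.03 and over all genes of 0.0029. In GRCm38 (GENCODE M21), the members with the clearest changes described below lie at chr11:114765388-114790739 (Kif19a), chr17:49615136-49909847 (Kif6), chr9:110476958-110525179 (Kif9), chr9:61915905-61946774 (Kif23) and chr10:127225696-127263348 (Kif5a), each over a whole gene. These are bulk cultures, in which fewer cells of a type and less RNA per cell cannot be told apart.

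**Figure D1:**
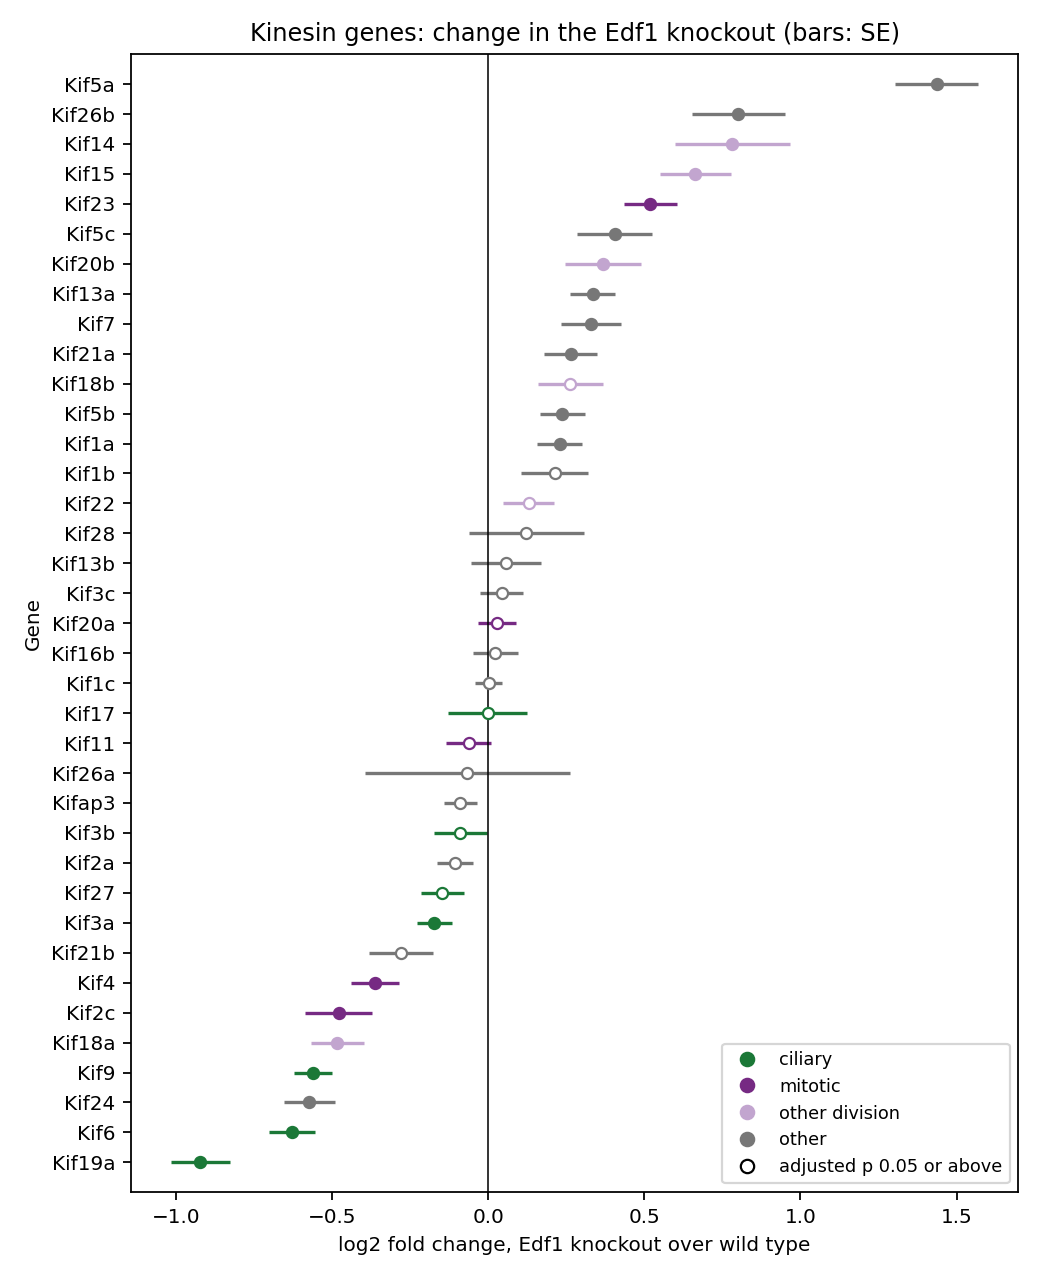
Log2 fold change of each of the 37 tested kinesin genes (x axis, knockout over WT, bars are the SE), ordered by value. Filled points passed an adjusted p-value under 0.05 and open points did not; green marks the ciliary group, dark purple the mitotic group, light purple the other division kinesins and grey the rest. Kif19a, Kif6, Kif24 and Kif9 stand at the bottom and Kif5a at the top, at 1.44.

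The ciliary group was lower in its summed level, and Kif9, Kif6 and Kif19a together accounted for most of the loss. The largest part in CPM was that of the highly expressed Kif9 (mean 158 in WT, 107 in the knockout). Kif3a (160 and 142 CPM) lost more CPM than Kif6 (44.1 and 28.4) or Kif19a (33.2 and 17.4). Summed over the 7 genes, levels were 576, 559.7 and 556 CPM in WT replicates 1, 2 and 3 and 454, 434 and 464 CPM in Edf1 knockouts replicates. The knockout total was 79.96% of the WT total (451 ± 15.3 against 564 ± 10.4 CPM, SD, n = 3). All 7 genes had a log2 change below 0, with a median of -0.17. Of these, 4 were called lower (Kif19a, Kif6, Kif9 and Kif3a) and 0 higher, where 14.2% of all genes were called lower. Kif27, Kif3b and Kif17 did not pass. The sign of Kif17, at -0.0023, turned in 6 of 14 alternative fits, and that of Kif3b in 1.

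Kif19a fell most. It encodes a motor of the kinesin-8 family that takes microtubules apart at the ciliary tip and so limits the length of motile cilia. Its level was 31.5, 37.9 and 30.2 CPM in the WT replicates and 16.8, 17.7 and 17.6 CPM in Edf1 knockouts replicates. Every knockout library lay far below every WT library, and the knockout replicates differed from each other by less than the WT ones. The log2 change was -0.92 (SE 0.09, adjusted p = 1.60e-05), which left 52.4% of the WT level.

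Kif6 and Kif9 form the kinesin-9 family, whose members are bound to motile cilia and flagella. Kif6 is needed for ependymal cilia in mice, and Kif9 lies at the central pair of the axoneme. Kif6 had 42.9, 46.6 and 42.6 CPM in WT and 30.4, 26.5 and 28.4 CPM in Edf1 knockouts, a log2 change of -0.63 (SE 0.07, adjusted p = 5.40e-05). Kif9 had 153, 172 and 149.7 CPM in WT and 108, 104 and 108 CPM in Edf1 knockouts, a log2 change of -0.56 (SE 0.06, adjusted p = 2.63e-05). In both genes the groups were well apart, and WT replicate 2 was the highest library. Per kilobase of transcript, Kif9 was at 49.6 ± 3.75 CPM in WT and Kif6 at 12.5 ± 0.63 CPM, so Kif9 made up most of this family in the cultures.

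On the log2 scale, the kinesin-2 motor of intraflagellar transport changed little beside these. Kif3a, one of its motor subunits, had 165, 152 and 162 CPM in WT and 143, 133 and 149 CPM in Edf1 knockouts. The groups did not overlap, but the gap between the lowest WT and the highest knockout library was narrow. The log2 change was -0.17 (SE 0.06, adjusted p = 0.0422). This call did not hold when library size alone was used for scaling (-0.16, adjusted p = 0.0663) and without WT replicate 1 (-0.14, 0.155), WT replicate 3 (-0.16, 0.0885), knockout replicate 1 (-0.18, 0.111), knockout replicate 2 (-0.13, 0.186) or knockout replicate 3 (-0.21, 0.0512).

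Kif3b, the partner motor of Kif3a, had 80.5, 60.8 and 69.6 CPM in WT and 66.8, 68.1 and 64.6 CPM in Edf1 knockouts. The WT replicates spread more widely than the knockout ones and enclosed them. Its log2 change was -0.09 (SE 0.08, adjusted p = 0.474, 95% interval -0.27 to 0.09). It passed without WT replicate 2 (-0.18, adjusted p = 0.0280) and was above 0 without WT replicate 1 (0.03, adjusted p = 0.843). Kifap3, which links the motor pair to its cargo, had 148, 149.95 and 146 CPM in WT and 145, 133 and 139 CPM in Edf1 knockouts. The groups did not overlap, yet the log2 change of -0.09 (SE 0.05, adjusted p = 0.229, 95% interval -0.20 to 0.02) did not pass.

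Because the 3 proteins act as one complex, the balance of their transcripts was compared within each library. The ratio of Kif3b to Kif3a in CPM was 0.487, 0.400 and 0.430 in WT and 0.466, 0.512 and 0.435 in Edf1 knockouts. The ranges overlapped, and the difference in mean log2 ratio was 0.10 (exact two-sided permutation test, p = 0.4). Leaving out 1 library moved this difference between 0.04 (without WT replicate 2) and 0.18 (without WT replicate 1). Leaving out knockout replicate 2 or 3 gave 0.04 and 0.16. The ratio of Kifap3 to Kif3a was 0.894, 0.987 and 0.900 in WT and 1.01, 0.999 and 0.933 in Edf1 knockouts, with a difference of 0.08 (exact two-sided permutation test, p = 0.2). It was 0.13 without WT replicate 2. Adjusted over these 2 ratios both p-values were 0.4, and with 3 libraries against 3 this test cannot go below 0.1. Kif3c, which can replace Kif3b in the motor pair, had a log2 change of 0.04 (SE 0.07, adjusted p = 0.692), and 40.7% of its exon bases overlap genes on the opposite strand.

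Kif27 and Kif17 complete the ciliary group. Kif27, a relative of Kif7 that works with the kinase Stk36 in building the central pair, had 94.1, 81.9 and 91.8 CPM in WT and 81.0, 75.2 and 85.9 CPM in Edf1 knockouts. Most knockout libraries lay below most WT libraries, but the groups overlapped through WT replicate 2. At -0.15 on the log2 scale (SE 0.07, adjusted p = 0.139) it did not pass. It did pass without WT replicate 2 (-0.20, adjusted p = 0.00957) and after a correction for GC content and transcript length (-0.18, adjusted p = 0.0194). Kif17, a kinesin-2 homodimer best known from neurons and sensory cilia, was low and level, with 8.66, 8.78 and 10.4 CPM in WT and 8.12, 9.19 and 10.3 CPM in Edf1 knockouts. Its log2 change was -0.0023 (SE 0.13, 95% interval -0.28 to 0.27), so a moderate change in either direction remains possible at this depth.

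**Figure D2:**
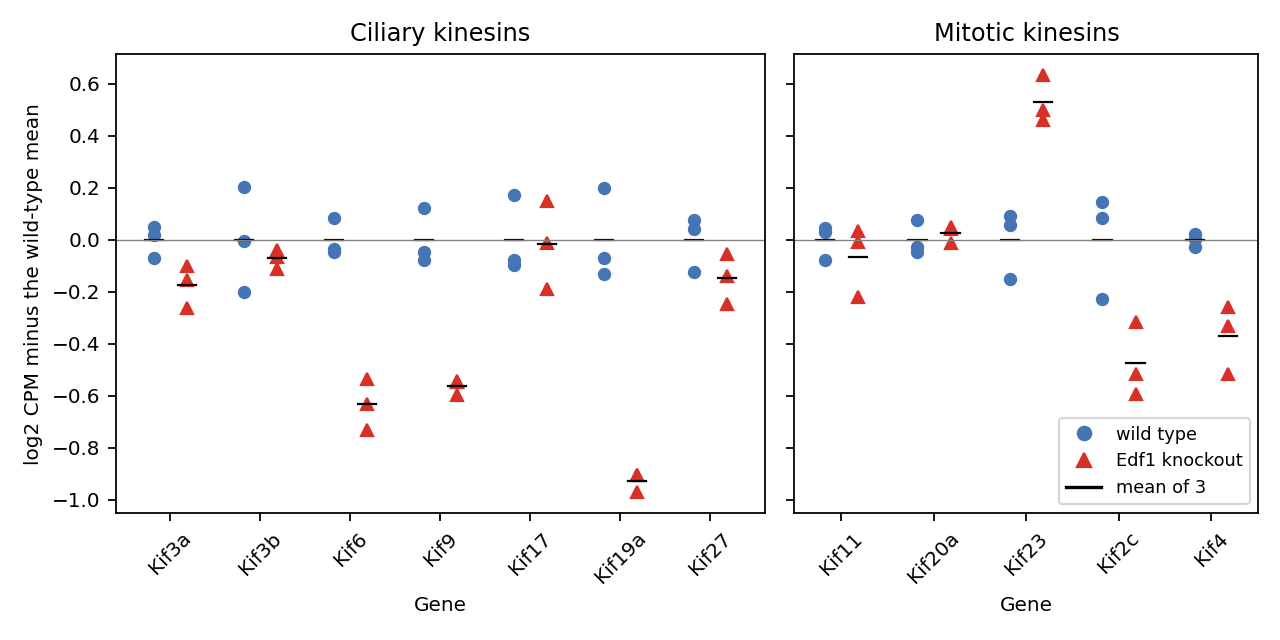
Level of each ciliary (left) and mitotic (right) kinesin gene in each library, as log2 CPM minus the WT mean of the gene (y axis); blue circles are the 3 WT and red triangles the 3 knockout libraries, and black lines are group means. Kif6, Kif9 and Kif19a are separated downwards, Kif23 is separated upwards, and Kif3b, Kif17, Kif11 and Kif20a overlap.

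The mitotic group split. Kif2c and Kif4 were called lower, Kif23 was called higher, and Kif11 and Kif20a were not called. The sum over the 5 genes was 191, 188 and 186 CPM in WT and 191, 167 and 182 CPM in Edf1 knockouts, with overlapping ranges (188 ± 2.61 and 180.2 ± 12.1 CPM, SD, n = 3). The median log2 change was -0.06. It was 0.0087 without knockout replicate 2, and 0.13 when 6 other division kinesins (Kif14, Kif15, Kif18a, Kif18b, Kif20b and Kif22) were added. Its sign thus depended on the library and on the genes listed.

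Kif2c, which removes wrongly attached microtubules from centromeres by taking them apart, had 30.2, 31.6 and 24.4 CPM in WT and 22.9, 18.9 and 20.0 CPM in Edf1 knockouts. The groups did not overlap, although WT replicate 3 came close to the knockout. The log2 change was -0.48 (SE 0.11, adjusted p = 0.00530). Kif4, a chromokinesin that shapes chromosomes and sets the length of the midzone together with Prc1, had 37.0, 37.7 and 38.2 CPM in WT and 31.4, 26.3 and 29.9 CPM in Edf1 knockouts. The WT replicates were tightly grouped and all above the knockout. Its log2 change was -0.36 (SE 0.08, adjusted p = 0.00414). Of its exon bases, 15.1% overlap Pdzd11 on the opposite strand, and the use of strand in counting is not stated in the sources used here.

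Kif23 moved the opposite way. It encodes the motor subunit of centralspindlin, which bundles midzone microtubules and starts cytokinesis together with Racgap1. It had 23.2, 20.1 and 23.8 CPM in WT and 34.7, 30.8 and 31.6 CPM in Edf1 knockouts, with no overlap. The log2 change was 0.52 (SE 0.09, adjusted p = 0.000673), or 144% of the WT level.

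The other pair of mitotic motors did not separate the genotypes. Kif11, the motor that pushes spindle poles apart, had 56.6, 52.0 and 55.9 CPM in WT and 56.1, 47.1 and 54.6 CPM in Edf1 knockouts. Its log2 change was -0.06 (SE 0.07, adjusted p = 0.566, 95% interval -0.22 to 0.09). Kif20a, which brings the chromosomal passenger complex to the midzone, had 43.8, 47.1 and 43.2 CPM in WT and 46.2, 44.3 and 46.0 CPM in Edf1 knockouts. Its log2 change was 0.03 (SE 0.06, adjusted p = 0.773, 95% interval -0.11 to 0.16). For Kif20a the knockout libraries lay within the WT range. For Kif11 knockout replicates 1 and 3 did, while knockout replicate 2 was below every WT library. Of the Kif20a exon bases, 29.3% overlap Cdc23 on the opposite strand.

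Of the 6 further division kinesins, 3 were called higher (Kif14, Kif15 and Kif20b) and 1 lower (Kif18a), where 12.7% and 14.2% of all genes were. The 6 genes had 5 values above 0 and a median log2 change of 0.31. Their summed level was 84.4 ± 4.09 CPM in WT and 95.3 ± 2.47 CPM in Edf1 knockouts (SD, n = 3), 113% of WT, with ranges that did not overlap (81.2 to 89.0 and 92.8 to 97.8 CPM). Kif18a, the kinesin-8 that aligns chromosomes at the spindle equator, had 20.4, 23.4 and 22.8 CPM in WT and 16.2, 15.9 and 15.3 CPM in Edf1 knockouts, a log2 change of -0.48 (SE 0.08, adjusted p = 0.00109). Kif15, a spindle motor that can stand in for Kif11, had 10.1, 8.39 and 10.7 CPM in WT and 15.9, 13.8 and 16.8 CPM in Edf1 knockouts, a log2 change of 0.66 (SE 0.11, adjusted p = 0.000982). Neither gene had overlapping groups, and they differed in opposite directions. Kif14, a midbody kinesin, rose from 3.58, 2.56 and 3.95 CPM in WT to 5.53, 6.96 and 5.31 CPM in Edf1 knockouts (log2 change 0.78, SE 0.19, adjusted p = 0.00776). Kif20b, a cytokinesis motor, was called higher at 0.37 (SE 0.12, adjusted p = 0.0397), with 16.0, 13.7 and 17.8 CPM in WT and 22.1, 17.0 and 22.4 CPM in Edf1 knockouts. Knockout replicate 2 of Kif20b lay within the WT range, and the call did not hold without WT replicate 1 (0.37, adjusted p = 0.0936), knockout replicate 1 (0.32, 0.140) or knockout replicate 3 (0.29, 0.174). Kif18b (0.26, SE 0.10, adjusted p = 0.0843) and Kif22 (0.13, SE 0.08, adjusted p = 0.272) did not pass.

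Set side by side, the groups differed little in their medians and more in their summed levels. The ciliary median (-0.17) was lower than the mitotic one (-0.06) by 0.11 on the log2 scale. Between single libraries of a genotype that difference had a pooled SD of 0.12, which is not the spread of a difference between group means. After the correction for GC content and length the difference of the medians was 0.05. The summed knockout level was 79.96% of WT for the ciliary group and 95.7% for the mitotic group. In the ciliary group 4 of 7 genes were called and all 4 were lower. In the mitotic group 3 of 5 were called, 2 lower and 1 higher, where 26.9% of all genes were called in either direction. A called change of at least 1.5-fold in either direction was found for 2 ciliary genes, Kif19a and Kif6, both lower. It was found for 0 of the mitotic genes and for 7.9% of all genes. The ciliary Kif9 (1.48-fold lower) and the mitotic Kif23 (1.43-fold higher) lay just under this cut. The difference between these counts was not tested.

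Promoters were examined because the members differed in direction. RefSeq start sites (GRCm38.p6) were listed for 32 of the 40 members, and the 250 bases before each start were searched on both strands. Kif5a, Kif5b, Kif13b, Kif19a, Kif19b, Kif20a, Kif21b and Kif28 had no entry. The X-box, the element bound by RFX factors, was found in 4 of the members' 36 windows, those of Kif9, Kif18a, Kif18b and Kif23. Of all 32851 promoter windows in the table, 1.8% held one. These stretches are shown because they put a ciliary and 3 division kinesins under one letter pattern, with the X-box in capitals. In each of them the consensus reads on the opposite strand of the one printed.
Kif9, chr9:110476959-110476988, plus strand: ggcttcctGTTGCCATGGCGACtgtgtaca
Kif18a, chr2:109280660-109280689, plus strand: ccgcgcgcGTTGCCACGGCGACgcccagga
Kif23, chr9:61946864-61946893, minus strand: gcccttggGTTGCCAAGGAGACgagcgccc
Kif18b, chr11:102925172-102925201, minus strand: ctgtctttGTTACTTAGGAAACagccaatc
The X-box began 27 bases before the listed start of Kif9, and 70, 86 and 69 bases before those of Kif18a, Kif23 and Kif18b. Kif9 has another listed start further upstream, at base 110476958, before which no X-box was found, so the printed stretch lies between its listed starts. Of these genes Kif9 and Kif18a were called lower, Kif23 was called higher and Kif18b was not called. The part of the X-box in these changes was not tested.

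The cell cycle genes homology region (CHR, spelled TTTGAA) and the CCAAT box (spelled CCAAT) are elements of many cell cycle promoters. A CHR was found in 8 of the 36 windows (22.2%) and a CCAAT box in 16 (44.4%), against 16.0% and 33.8% of all promoter windows, and the forkhead motif GTAAACA in 0 against 3.17%. Of the 36 windows, 26 had the 30 bases after the listed start in a GENCODE transcript of the same gene, so not every listed start was matched. For 5 windows (Kif1a, Kif2c, Kif14, Kif17 and Kif27) the listed start lay more than 1000 bases inside the GENCODE gene, so these may not be promoters. They held 4 of the 8 windows with a CHR, 2 of the 16 with a CCAAT box and 0 of those with an X-box. Kif11 is shown as an example with both elements close to the start, each on the reverse strand and in capitals (ATTGG, then TTCAAA).
Kif11, chr19:37376322-37376381, plus strand: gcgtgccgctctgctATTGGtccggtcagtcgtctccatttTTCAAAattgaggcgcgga
These matches describe letters in the reference and are not measurements of binding.

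Outside the contrasted groups, kinesin-1 rose in full. Kinesin-1 is the main motor for cargo in the cytoplasm, and its heavy chains are Kif5a, Kif5b and Kif5c, of which Kif5a and Kif5c are known mainly from neurons. All 3 were called higher, where 12.7% of all genes were. Kif5a had 9.49, 6.22 and 10.3 CPM in WT and 22.7, 24.2 and 25.0 CPM in Edf1 knockouts. Every knockout library was more than double the highest WT library. The log2 change of 1.44 (SE 0.13, adjusted p = 7.64e-06), 2.71-fold, was the largest in either direction among the tested kinesins.

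Kif5b, the form present in all cells, had 246, 208 and 255 CPM in WT and 273, 267 and 296 CPM in Edf1 knockouts (log2 change 0.24, SE 0.07, adjusted p = 0.0273). Kif5c had 22.2, 15.5 and 19.9 CPM in WT and 27.4, 27.6 and 22.8 CPM in Edf1 knockouts (log2 change 0.40, SE 0.12, adjusted p = 0.0266). For both, WT replicate 2 was the lowest library and the remaining WT libraries lay close to the knockout. The Kif5b call did not hold without knockout replicate 1 (0.25, adjusted p = 0.0702) or knockout replicate 3 (0.19, 0.128), and the Kif5c call without knockout replicate 1 (0.36, 0.0970) or knockout replicate 2 (0.36, 0.104). The Kif5b value was smaller, and still called, without WT replicate 2 (0.16, adjusted p = 0.00841) and after the GC and length correction (0.13, 0.0190). Per kilobase of transcript, Kif5b supplied 90.4 ± 0.91% of kinesin-1 in WT and 85.8 ± 1.10% in the knockout, and Kif5a 3.15 ± 0.47% and 7.09 ± 0.28% (SD, n = 3). Of the 10 tested neuron markers beside these values, 5 were above 0 and 5 below. Nefm was highest, at 0.91 (SE 0.32, adjusted p = 0.0506). Dcx was lowest, at -1.61 (SE 0.39, adjusted p = 0.00896), on only 4 to 20 counts in a library. Tubb3, also called lower, fell from 6.11 ± 0.783 to 3.45 ± 0.162 CPM. The part of neuronal cells in the kinesin-1 result was not tested.

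**Figure D3:**
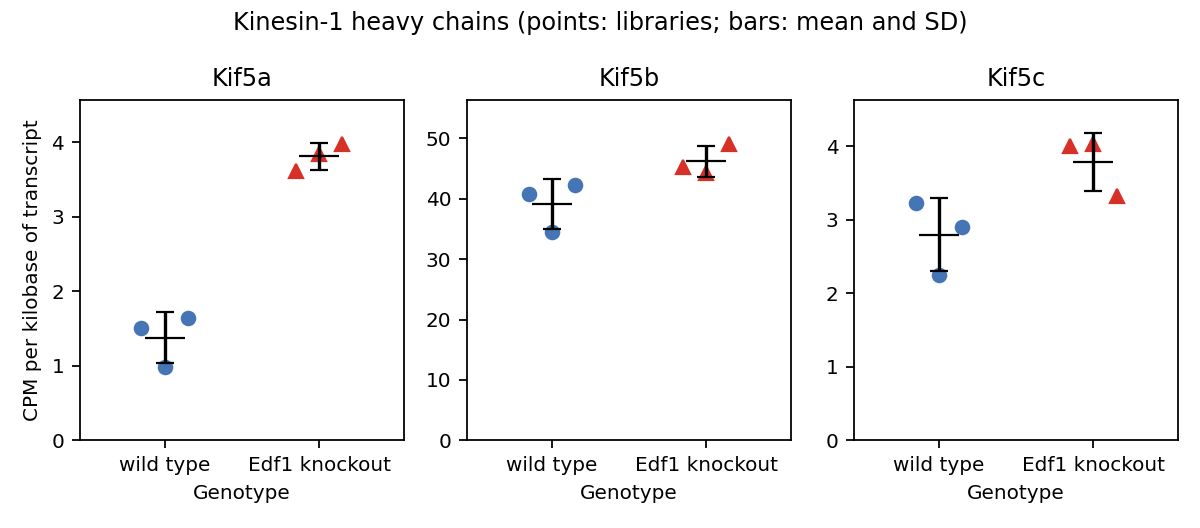
Level of the kinesin-1 heavy chain genes Kif5a, Kif5b and Kif5c in CPM per kilobase of transcript (y axes start at 0 and differ between panels); blue circles are WT and red triangles knockout libraries, with the mean and SD of 3. Kif5a shows the widest separation, and its knockout level equals about that of Kif5c, while Kif5b is far above both.

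Kinesin-3 motors, which carry vesicles and organelles, had no member called lower. Of 7 tested, 3 were called higher (12.7% of all genes were): Kif14 (above), Kif13a and Kif1a. Kif13a, a motor of recycling endosomes, had 76.8, 63.4 and 72.7 CPM in WT and 90.6, 94.2 and 85.0 CPM in Edf1 knockouts (log2 change 0.33, SE 0.07, adjusted p = 0.00477). Kif1a, a carrier of synaptic vesicle precursors, had 326, 275 and 338 CPM in WT and 376, 381 and 345 CPM in Edf1 knockouts (0.23, SE 0.07, adjusted p = 0.0313). The Kif1a groups were separated by a small gap, and its call did not hold without knockout replicate 1 (0.21, adjusted p = 0.118) or knockout replicate 2 (0.20, 0.124). It was smaller, and still called, without WT replicate 2 (0.14, adjusted p = 0.0119) and after the GC and length correction (0.11, 0.0440). Kif1b, a carrier of mitochondria and vesicles, had 494, 342 and 499 CPM in WT and 534, 511 and 504 CPM in Edf1 knockouts, and did not pass (0.21, SE 0.11, adjusted p = 0.170). Kif1c was the steadiest member, with 328, 329.9 and 325 CPM in WT and 328, 323 and 333 CPM in Edf1 knockouts (95% interval of the log2 change -0.09 to 0.09).

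In the kinesin-4 family, to which Kif4 and Kif27 also belong, Kif7 and Kif21a were called higher and Kif21b was not called. Kif7, a regulator of hedgehog signalling at the ciliary tip, had 19.0, 18.6 and 22.6 CPM in WT and 23.5, 24.3 and 27.7 CPM in Edf1 knockouts (log2 change 0.33, SE 0.10, adjusted p = 0.0250). This rise was opposite in sign to the changes of the axonemal kinesins, and the call did not hold without WT replicate 1 (0.29, adjusted p = 0.103), knockout replicate 2 (0.35, 0.0523) or knockout replicate 3 (0.25, 0.129). Of the Kif7 exon bases, 20.3% overlap Ticrr or 9330171B17Rik on the opposite strand. Kif21a, which halts microtubule growth at the cell edge, had 148, 117 and 145 CPM in WT and 166, 150.5 and 177 CPM in Edf1 knockouts (0.26, SE 0.08, adjusted p = 0.0373). Its call did not hold without knockout replicate 1 (0.26, adjusted p = 0.112) or knockout replicate 3 (0.21, 0.165). Without WT replicate 2 it was smaller and still called (0.17, adjusted p = 0.0216). Kif21b had a value of -0.28 (SE 0.10, adjusted p = 0.0630), which passed without WT replicate 2 (-0.37, 0.00264) and after the GC and length correction (-0.41, 0.00105).

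Kinesin-13 proteins take microtubules apart, and all 3 tested members had values below 0. Kif24, which acts at the mother centriole and holds back ciliogenesis, had 30.3, 26.1 and 27.7 CPM in WT and 19.5, 18.9 and 18.5 CPM in Edf1 knockouts. No library overlapped between the groups, and the log2 change was -0.57 (SE 0.08, adjusted p = 0.000220). Kif2a, which acts at spindle poles and in the disassembly of primary cilia, had a value of -0.11 (SE 0.06, adjusted p = 0.197). It passed without WT replicate 2 (-0.14, adjusted p = 0.0479) and after the GC and length correction (-0.23, 0.00154), and 19.2% of its exon bases overlap Dimt1 on the opposite strand. Kif26b, a kinesin-11 protein without motor activity that acts in Wnt5a signalling, had 6.97, 5.36 and 7.73 CPM in WT and 12.97, 12.8 and 10.1 CPM in Edf1 knockouts (log2 change 0.80, SE 0.15, adjusted p = 0.00159). Its relative Kif26a was near 1.5 CPM in both groups and was not called (-0.07, SE 0.33).

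The remaining members were low or level. Kif16b, Kif13b and Kif28 were not called, with log2 changes from 0.02 to 0.12. Kif12 had 0 to 2 counts in a library, Kif19b 0 to 3 and Kif2b 0 in all 6, so none of them was above 3 counts in any library, the floor used here. Per kilobase of transcript, the highest WT levels were those of Kif3a (50.5 ± 2.16 CPM), Kif9 (49.6 ± 3.75), Kif1c (49.0 ± 0.39) and Kif1b (43.5 ± 8.73). These 4 did not differ from their neighbours in that order by more than their SDs together. Kif9 left this leading set in the knockout, at 33.6 ± 0.69 CPM per kilobase, below Kif3a (44.8 ± 2.52), Kif1a (44.8 ± 2.36) and Kif5b (46.2 ± 2.51) and about level with Kifap3 (34.6 ± 1.51).

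**Figure D4:**
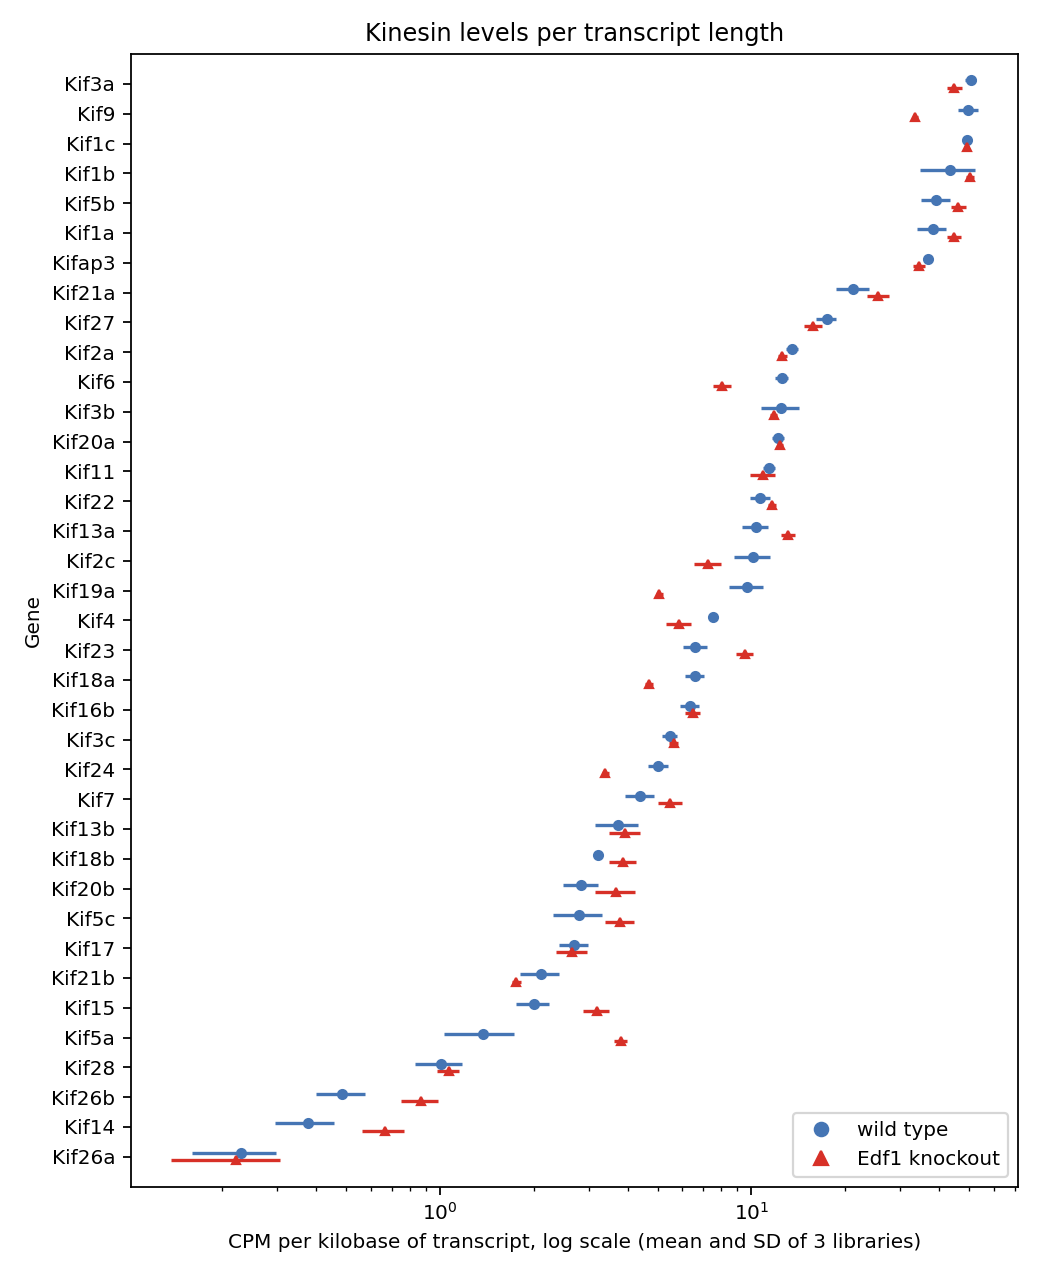
Level of 37 kinesin genes in CPM per kilobase of transcript on a log axis, ordered by the WT level; blue circles are WT and red triangles knockout means with the SD of 3 libraries. Levels span from 0.229 for Kif26a to 50.5 for Kif3a in WT.

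The partner genes of each kinesin class give the setting. Intraflagellar transport trains are carried outward by kinesin-2 and back by dynein-2. Of the B complex, 17 of 18 tested genes were called lower (median log2 change -0.41), where 14.2% of all genes were called lower. So were 4 of 6 of the A complex (-0.26) and 3 of 4 of dynein-2 (-0.31). Among the genes called lower were Ift22 (-0.60), Ift20 (-0.57), Ift140 (-0.56) and Wdr60, a dynein-2 intermediate chain, at -1.26 (SE 0.06). The cargo and return motor genes thus had medians further below 0 than Kif3a (-0.17), Kif3b (-0.09) and Kifap3 (-0.09). That difference was not tested. In the central pair apparatus, all 13 listed genes were called lower, against the same 14.2% of all genes, with a median of -0.69. Stk36, the partner of Kif27, was at -0.29 (SE 0.06) and Ulk4 at -0.69 (SE 0.06), and the furthest below 0 were Spag17 (-1.78), Cfap221 (-1.08) and Hydin (-0.99).

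Most spindle partner genes were not called. Of 15, 3 were called higher and 1 lower, a share near the 26.9% called over all genes, with a median of 0.03. Racgap1, the partner of Kif23, was level at 55.3 ± 0.750 CPM in WT and 57.4 ± 4.22 CPM in Edf1 knockouts (log2 change 0.05, adjusted p = 0.605), and Prc1, the partner of Kif4, was at -0.13 (adjusted p = 0.116). The 3 called higher were Birc5 (0.65) and Aurkb (0.51) of the chromosomal passenger complex and Nusap1 (0.44), while Plk1 was lower (-0.26). Among 8 proliferation markers, Mki67 (0.97) and Ccna2 (0.68) were called higher, and Aurka (-0.58), Cdk1 (-0.47), Ccnb1 (-0.32) and Top2a (-0.22) were called lower. Their summed levels overlapped, at 592 to 629 CPM in WT and 578 to 621 CPM in Edf1 knockouts.

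**Figure D5:**
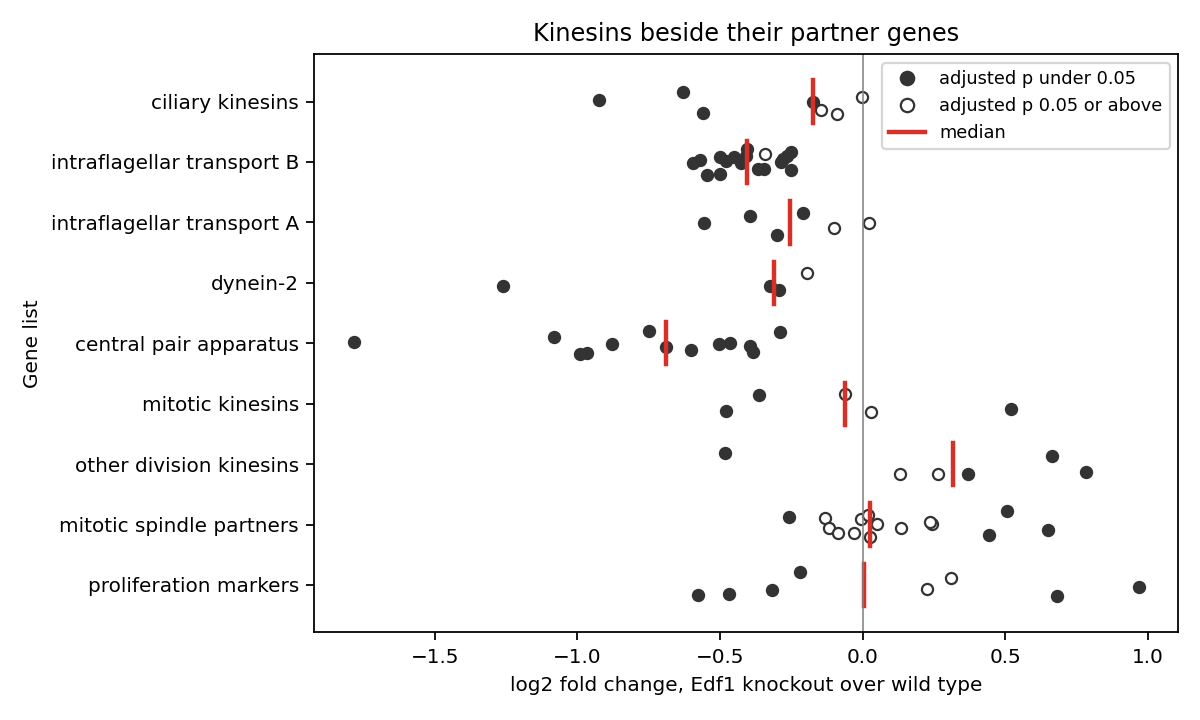
Log2 fold change (x axis, knockout over WT) of each tested gene in 9 lists (rows), with filled points for an adjusted p-value under 0.05, open points for the others and a red line at the median. The ciliary lists lie at or below 0 except Ttc21b at 0.02, whereas the division lists fall on both sides.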

How the data were processed

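Whole-number read counts per gene were deposited by the authors as 1 table with 1 column per library. Per the submitters' processing notes, FastQC 0.11.2, cutadapt 1.11, HISAT2 2.1.0 and the genome build GRCm38 were used. The counting program, annotation and strand setting are not given in the sources used here. Each column was matched to a sample by genotype and replicate number, and 0 rows named no gene.

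Counts were analysed in R 4.3.3. The filter of edgeR 4.0.16 (filterByExpr) kept 14243 of 22851 genes, TMM factors (0.985 to 1.01) adjusted the library sizes, and edgeR's quasi-likelihood test compared knockout with WT without covariates, and p-values were adjusted by the Benjamini-Hochberg method across the tested genes (threshold 0.05). SE is the absolute log2 fold change divided by the root of the F statistic. CPM use TMM-scaled sizes. Levels per kilobase divide by the longest protein-coding transcript of GENCODE M21, which was also used for exon overlap. Alternatives were DESeq2 1.42.0, limma 3.58.1 voom, DESeq2 size factors, library size alone, other count filters, a block for replicate number, leaving out each library, and offsets for GC content and length (splines with 4 degrees of freedom, 99.0% of genes). The fits were tested on simulated counts. Every member could be named; of partner lists, the called genes with the largest changes and fixed direct partners were, and others were chosen after their values were seen. Members and lists were chosen with earlier results of these data known.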

Additional observations from a re-analysis of the deposited data

How the results depend on the processing

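Of the 20 called kinesin genes, 13 kept their call and direction in all 14 alternatives, and these are also the 13 whose edgeR adjusted p was below 0.01. The other 7 (Kif1a, Kif3a, Kif5b, Kif5c, Kif7, Kif20b and Kif21a) lost the call in at least 1. Under the stricter threshold of 0.01, 13 members were called, 6 of them higher. Leaving out 1 library gave 14 to 24 called members, 7 to 12 lower and 7 to 12 higher, with 7 higher without knockout replicate 1. WT replicate 2 was the WT library with the lowest level in all 12 genes called higher, and without it all 20 calls were made again. The ciliary median ran from -0.21 to -0.13 and the mitotic one from -0.11 to 0.0087 when 1 library was left out. The mitotic median was above 0 without knockout replicate 2 (0.0087) and with 6 other division kinesins added (0.13). The difference of the medians ran from -0.14 to -0.07 and was -0.05 after the GC and length correction, with a mitotic median of -0.13.

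Of the 17 members not called, 9 changed direction in some alternative. Kif17 was at 0.010 with library size alone, 0.0022 with a mean of 50 counts and 0.015 with limma voom. After the GC and length correction Kif13b was at -0.053, Kif16b at -0.046, Kif1c at -0.094 and Kif3c at -0.033. With 1 library left out, Kif17 ran from -0.097 to 0.092, Kif11 from -0.11 to 0.0087, Kif13b from -0.049 to 0.19, Kif16b from -0.029 to 0.063, Kif1c from -0.0085 to 0.012, Kif26a from -0.39 to 0.21, Kif28 from -0.0082 to 0.24, Kif3b from -0.18 to 0.026 and Kif3c from -0.0013 to 0.077. The cause was not tested. The replicate number as a block changed no member's call or direction and called all 20 again. Same-numbered libraries deviated together with correlations of 0.069, 0.060 and 0.037, so no pairing was assumed. Levels near 3 counts in a library are limited by counting error, and shared sequence (8.67% of 31-mers in Kif11 and 5.3% in Kif2c) can shift counts between copies.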

Other observations

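Of 9 tested genes outside the family rule (kinesin light chains, C-type kinesins and Kifbp), 1 was called higher and 1 lower, against 26.9% of all genes. Groups did not overlap for 7 of the 9, against 43.3% of all genes tested. Of the kinesin light chains, Klc1, which links kinesin-1 to cargo, was called higher (0.19, SE 0.06, adjusted p = 0.0294 in edgeR's test) and Klc2 lower (-0.24, SE 0.08, adjusted p = 0.0404). The minus-end-directed motors Kifc1 (0.24, adjusted p = 0.0590), Kifc2 (0.30, 0.0967), Kifc3 (0.11, 0.113) and Kifc5b were not called. Cenpe, a kinetochore motor with a kinesin head, was at 0.24 (SE 0.09, adjusted p = 0.0607), and Kifbp, which binds and holds back several kinesins, at -0.12 (SE 0.05, adjusted p = 0.108).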
